A study of Mus musculus with 140 samples.

Results

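The axon guidance ligands and receptors were taken as the autosomal protein-coding mouse genes of the semaphorin, plexin, ephrin, Eph receptor, Slit, Robo, netrin and Unc5 families, together with Dcc. Members were chosen by gene symbol alone, which gave 64 genes of 20807 autosomal protein-coding genes in GENCODE M21, 34 ligands and 30 receptors. Another 3 genes with matching names, Plxna3, Plxnb3 and Efnb1, lie on the X chromosome and were not counted. A silencer interval was assigned to a gene when it overlapped the gene body or the 10 kb on either side, called the territory below. By this rule the members held 416 of the 89596 intervals listed for mouse embryonic fibroblasts (MEFs) and 526 of the 115165 listed for mouse embryonic stem cells (mESCs). No interval counted for more than 1 member.

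The study screened the mouse genome for silencers, DNA elements that lower transcription, by Ss-STARR-seq, in which pieces of sheared genomic DNA are put into a reporter plasmid and their reporter RNA is read from transfected cells. The labels describe 20 libraries of the input plasmid pool, 64 of MEF reporter RNA and 56 of mESC reporter RNA. Each cell type was represented by 1 list of intervals with an authors' fold, so no difference between the cell types had a replicate check. MEFs, differentiated connective tissue cells, were grown in serum, and mESCs, which are pluripotent, in N2B27 medium with both kinase inhibitors (2i) and LIF. The growth protocol also names an induction medium for MEFs. The sources used here do not say which medium held the transfected MEFs, or name a strain. A plasmid reporter reads a fragment outside its chromosome, and an interval was tied to a gene by position only. Neither list holds expression values, so the cell identities were not checked here.

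Axon guidance molecules steer the growth cone, the motile tip of an extending axon, by attraction or repulsion. Semaphorins signal through plexins, ephrins through Eph receptor tyrosine kinases, Slits through Robo receptors, and netrins through Dcc and the Unc5 receptors. Many of the same families also act outside the nervous system, in blood vessel growth, cell migration and tissue boundaries.

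The member intervals with the highest authors' folds are shown first, because they carry the largest authors' values near these genes. All are written 5′ to 3′ on the plus strand of GRCm38.p6 (mm10), whichever strand the gene is on. Capitals mark a match to one of the short motifs that were searched and are explained with the motif counts. The first 4 were listed in both cell types. The Epha5 sequence is chr5:84169704-84169853, 248 kb into a gene for an ephrin-A receptor. Epha10, which encodes an Eph receptor that lacks kinase activity, held chr4:124903902-124904051. Robo1, a receptor for Slits, held chr16:72367800-72368049, and Sema3a, a secreted repellent, held chr5:13607764-13608063 in the flank downstream of the gene. The first 3 of these lie in introns.
Epha5, MEF list: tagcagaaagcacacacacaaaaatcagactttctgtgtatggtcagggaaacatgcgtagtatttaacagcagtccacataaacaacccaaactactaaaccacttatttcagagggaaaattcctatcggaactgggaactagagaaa
Epha10, MEF list: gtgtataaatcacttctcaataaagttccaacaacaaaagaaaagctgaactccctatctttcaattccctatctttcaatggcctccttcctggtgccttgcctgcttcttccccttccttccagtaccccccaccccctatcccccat
Robo1, MEF list: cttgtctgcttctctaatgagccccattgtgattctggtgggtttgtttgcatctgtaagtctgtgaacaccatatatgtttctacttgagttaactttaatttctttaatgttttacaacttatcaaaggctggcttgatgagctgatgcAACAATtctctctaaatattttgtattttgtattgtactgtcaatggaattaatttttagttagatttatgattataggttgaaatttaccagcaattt
Sema3a, mESC list: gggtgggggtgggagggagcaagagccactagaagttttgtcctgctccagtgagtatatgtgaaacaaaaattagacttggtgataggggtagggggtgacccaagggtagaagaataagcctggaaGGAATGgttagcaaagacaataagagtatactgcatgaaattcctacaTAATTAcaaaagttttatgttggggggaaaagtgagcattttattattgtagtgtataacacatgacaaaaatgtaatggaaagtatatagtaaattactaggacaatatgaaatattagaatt

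The next 5 sequences also ranked among the 5 highest folds of their list within the member territories, but no interval of the other list overlapped them. They lie inside the gene bodies, at chr6:32564952-32565051 (Plxna4), chr16:60084102-60084151 (Epha6), chr5:13201805-13201854 (Sema3a), chr11:35426452-35426551 (Slit3) and chr5:84284563-84284712 (Epha5). The 50 bp Sema3a interval is in a part of the gene body that only noncoding transcripts of the locus span. The Epha5 sequence of this set was 100% soft-masked, that is, annotated as interspersed or simple repeat, and the Slit3 sequence 92%.
Plxna4, MEF list: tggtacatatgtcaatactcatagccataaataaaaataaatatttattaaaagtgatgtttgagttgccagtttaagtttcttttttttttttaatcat
Epha6, MEF list: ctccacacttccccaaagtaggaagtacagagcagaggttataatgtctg
Sema3a, mESC list: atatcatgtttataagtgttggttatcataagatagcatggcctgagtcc
Slit3, mESC list: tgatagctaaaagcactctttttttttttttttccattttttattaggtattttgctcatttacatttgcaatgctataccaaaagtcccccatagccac
Epha5, mESC list: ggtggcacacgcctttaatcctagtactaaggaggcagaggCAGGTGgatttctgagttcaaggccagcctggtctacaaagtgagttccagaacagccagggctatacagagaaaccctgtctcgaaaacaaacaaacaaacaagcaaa

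The last 3 sequences overlapped the 1 kb on either side of an annotated gene start. They are chr4:28812138-28812387 before Epha7, chr1:194617862-194617911 before Plxna2, and chr5:12384302-12384601 after the start of Sema3d. The Plxna2 interval lay 1938 bp from the nearest start of a protein-coding transcript. The Sema3d interval had its midpoint in an intron, 1.067 kb after the gene start. The overlapping Sema3d interval of the mESC list, chr5:12384202-12384601, met the same rule and is not printed.
Epha7, MEF list: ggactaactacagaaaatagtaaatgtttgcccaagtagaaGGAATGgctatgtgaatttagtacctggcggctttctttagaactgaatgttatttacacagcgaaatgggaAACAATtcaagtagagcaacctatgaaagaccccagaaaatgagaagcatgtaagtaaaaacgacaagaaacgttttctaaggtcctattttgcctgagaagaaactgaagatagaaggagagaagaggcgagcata
Plxna2, mESC list: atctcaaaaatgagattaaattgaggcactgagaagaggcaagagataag
Sema3d, MEF list: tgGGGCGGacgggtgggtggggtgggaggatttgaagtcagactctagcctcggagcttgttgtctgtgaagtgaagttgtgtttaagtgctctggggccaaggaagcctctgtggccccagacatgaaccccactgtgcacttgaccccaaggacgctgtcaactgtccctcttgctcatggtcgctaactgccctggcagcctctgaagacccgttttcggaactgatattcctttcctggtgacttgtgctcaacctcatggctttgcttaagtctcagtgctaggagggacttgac

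The highest folds did not order finely. The Epha5 and Epha10 intervals carried the same MEF fold, 13.6, which was 5.00 times the commonest fold of the MEF list, 2.72. The Plxna4 fold of 8.17 was 3.00 times that value and the Epha6 fold of 6.81 was 2.50 times it. In the mESC list the overlapping Epha5 interval, chr5:84169691-84169840, reached 15.6, or 5.75 times the commonest mESC fold of 2.71. The overlapping Epha10 interval reached 6.32 in mESCs. The Sema3a interval in the downstream flank had folds of 5.63 in MEFs and 10.5 in mESCs, and the Robo1 interval 7.195 in MEFs and 4.01 in mESCs. The Sema3a, Slit3 and Epha5 intervals listed in mESCs alone had folds of 8.67, 7.32 and 7.11. The lists hold no read counts, so no error could be put on a fold, and folds were used only to rank intervals within a list.

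Member territories held fewer intervals per megabase than the territories of autosomal protein-coding genes together. Over 12.8 Mb of merged territory the density was 32.5 intervals per Mb in MEFs and 41.1 in mESCs, against 38.5 and 49.97 per Mb over all such territories. The ratio of member to overall density was 0.85 in MEFs (95% Poisson interval 0.77 to 0.93) and 0.82 in mESCs (0.75 to 0.90). The count expected from each member and the 500 other genes nearest in territory length gave observed over expected ratios of 0.87 in both lists. For members with territories of 497 kb (Sema3a) or more, that set was the same group of longest genes. Their counts expected by length therefore followed a common rate per kb. The Poisson intervals cover counting error only. With only intervals of fold 3 or more, the mESC ratio was 0.98 and the MEF ratio stayed at 0.83. Member territories also differed in composition. Over all bases their GC content was 41.7% against 43.2% for all genes and their soft-masked share 23.1% against 28.7%. Per gene, where short genes weigh as much as long ones, the median GC content was higher, 48.9% against 44.8%, and the median soft-masked share lower, 19.7% against 27.5%. The part of composition in the lower density was not tested.

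Ranked by density among the 500 other genes nearest in territory length, most members fell in the lower part. Members with territories of 497 kb or more were again set against the same longest genes. In MEFs 41 of 64 members (64.1%) stood below the 50th percentile, where 50.6% of all genes stood, and in mESCs 46 (71.9%) against 49% of all genes. None of the members reached the 95th percentile in either list (0 of 64 in each), a level reached by 4.86% of all genes in MEFs and 4.82% in mESCs. At the 5th percentile or below in MEFs stood 1 member, Efna5, against 1.31% of all genes. In mESCs 3 members stood there, Slit3, Unc5a and Plxnd1, against 1.69% of all genes. These counts describe the members and were not tested.

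Interval counts followed gene length closely. Across the 64 members Spearman's rho between interval count and territory length was 0.84 in MEFs and 0.89 in mESCs, and rho between the MEF and mESC counts was 0.89. Over all 20807 genes the corresponding values were 0.61, 0.63 and 0.75. All of these share the same 2 lists and the same territories, so they are descriptions. The 10 members with the most intervals, Epha6, Dcc, Robo1, Unc5d, Sema6d, Robo2, Epha5, Sema5a, Sema3a and Slit2, held 59.4% of the MEF and 57.98% of the mESC member intervals on 49.1% of the merged territory. Among members with territories under 50 kb (27 genes) the density was 22.2 per Mb in MEFs and 28.2 in mESCs, against 35.3 and 47.6 for all genes of that length. Among the 17 members of 250 kb or more it was 35.4 and 43.4, against 36.9 and 45.8. The gap to other genes was thus narrowest in the longest genes.

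**Figure D1:**
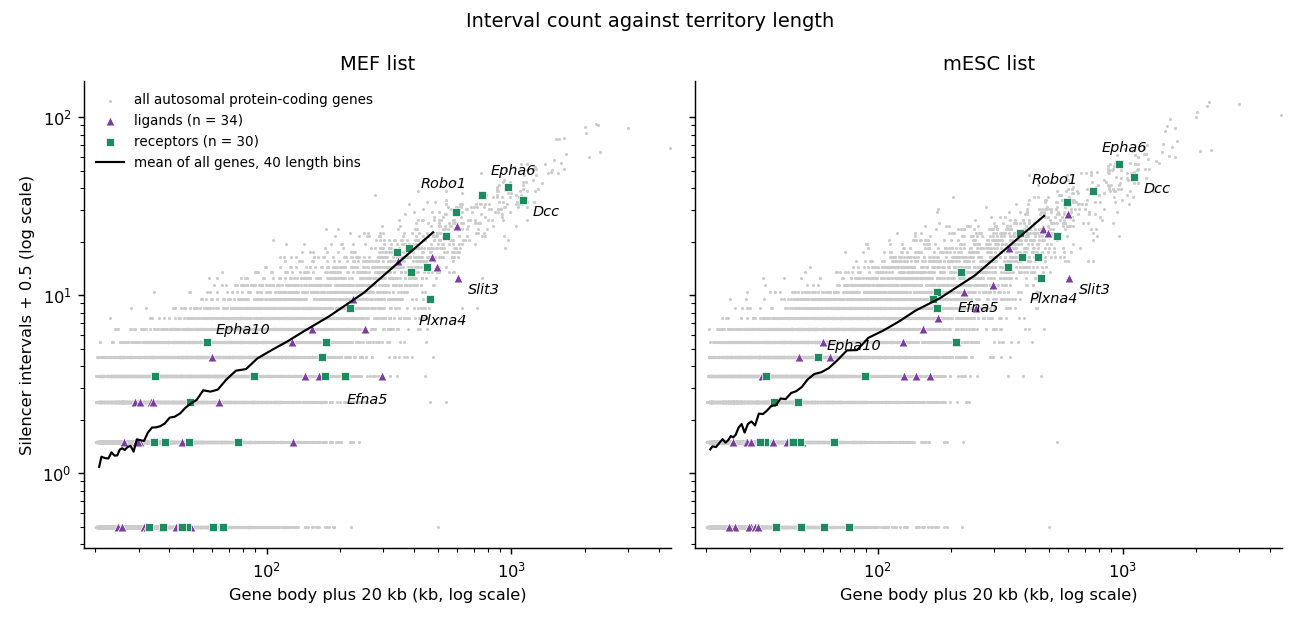
Number of listed silencer intervals (vertical, plus 0.5, log scale) against territory length in kb (horizontal, log scale) for the MEF list (left) and the mESC list (right). Grey points are the 20807 autosomal protein-coding genes, purple triangles the 34 ligands, green squares the 30 receptors, and the black line the mean of all genes in 40 length bins. Slit3 lies below the genes of its length in both panels and Efna5 in the MEF panel, while Epha6 and Robo1 lie near or above the line's course.

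Ligand genes held 28.5 intervals per Mb in MEFs (95% Poisson interval 24.05 to 33.5) and 37.1 in mESCs (32.04 to 42.8). Receptor genes held 35.2 (31.1 to 39.7) and 43.8 (39.2 to 48.7). Against genes of like length, observed over expected was 0.76 in MEFs and 0.78 in mESCs for ligands, and 0.94 and 0.93 for receptors. The difference between the roles was not tested. Without Epha6 the receptors stood at 34.4 and 42.1 per Mb, and without Slit3 the ligands at 29.7 and 39.5, so the order of the roles was the same. The median territory GC content was 49.6% for ligands and 46.9% for receptors.

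The 20 semaphorins, secreted or membrane-bound ligands, held 95 MEF and 127 mESC intervals, or 30.8 and 41.1 per Mb. Sema6d, a transmembrane semaphorin that binds plexin A1, held the most, with 24 in MEFs and 28 in mESCs. Sema5a, which carries thrombospondin repeats, held 16 and 23, and the repellent Sema3a 14 and 22. Sema3d held 9 and 10, and 7 of its 9 MEF intervals overlapped an mESC interval. The secreted class 3 genes as a group held 26.9 per Mb in MEFs and 38.0 in mESCs, and 67.6% of their MEF intervals were shared with mESCs (95% exact binomial interval 49.5% to 82.6%). Sema3b and Sema3g held no interval in either list.

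The 7 plexins, the semaphorin receptors, had the lowest density in MEFs of the 6 families. They held 20 MEF and 36 mESC intervals, or 18.6 per Mb (95% Poisson interval 11.4 to 28.8) and 33.6 per Mb (23.5 to 46.5). The MEF intervals came from 3 genes. Plxna2 held 8 in MEFs and 13 in mESCs, Plxna4 held 9 and 12, and Plxnc1, the receptor for Sema7a, held 3 and 8. Plxna4 was expected to hold 17.0 and 21.2 by its length. The 95% Poisson intervals of its counts were 4.12 to 17.1 and 6.20 to 21.0, so only the mESC expectation lay outside. Plxna1, Plxnb1 and Plxnb2 each held 0 in MEFs and 1 in mESCs, and Plxnd1, which has a role in vessel patterning, held none in either list where 2.42 and 3.32 were expected by length. Both expected counts for Plxnd1 lay inside the 95% Poisson interval of a count of 0, which runs to 3.69. More mESC than MEF intervals were counted in 6 of the 7 plexins, against 46.8% of all genes, but in Plxna1, Plxnb1 and Plxnb2 this rested on 1 interval each. The mESC share of plexin intervals was 64.3% (95% exact binomial interval 50.4% to 76.6%), which includes the 56.2% of both lists together. Without Plxna2 the plexins held 14.0 per Mb in MEFs and 26.9 in mESCs.

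The 7 ephrins are membrane-bound ligands, and most of their genes are short. They held 10 MEF and 18 mESC intervals, or 20.4 and 36.7 per Mb. Efna5, a guidance cue in topographic maps such as the one from retina to midbrain, was the exception in length at 277 kb. It held 3 MEF intervals (95% Poisson interval 0.62 to 8.77) where 11.4 were expected by length, and 11 mESC intervals where 14.1 were expected. Without Efna5 the ephrins held 36.1 per Mb in both lists. Efnb2, a marker of arterial endothelium, held 2 and 4, and Efna3 held 2 and 1. Efna4 held none in either list.

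The 14 Eph receptors held 114 MEF and 141 mESC intervals, or 37.9 and 46.9 per Mb, with observed over expected ratios of 1.01 and 1.00. The EphA genes stood at 40.9 per Mb in MEFs and 52.6 in mESCs, and the EphB genes at 29.4 and 30.6. Epha6 held the most intervals of all members, 40 in MEFs and 54 in mESCs, where its length gave 35.4 and 43.96. Epha5 held 18 and 22. Epha3 held 17 and 14, more in MEFs than in mESCs. Ephb1 followed with 14 and 16 intervals. Without Epha6 the other EphA genes held 40.7 and 50.3 per Mb. The short gene Epha10 held 5 and 4 where 2.42 and 3.21 were expected.

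Slit genes held fewer intervals per Mb than Robo genes in both lists. The Slit genes, which encode secreted repellents of the nervous system midline, held 26.9 intervals per Mb in MEFs (95% Poisson interval 18.1 to 38.4) and 29.6 in mESCs (20.4 to 41.6). The Robo genes held 42.2 (32.0 to 54.7) and 45.96 (35.2 to 58.9). Robo1 held 36 and 38 intervals, Robo2 21 and 21, and Slit2 15 and 18. Slit3 held 12 in each list (95% Poisson interval 6.20 to 21.0), where 22.1 MEF and 27.5 mESC intervals were expected by length. Of the 12 Slit3 intervals in MEFs, 1 overlapped an mESC interval, or 8.33% (95% exact binomial interval 0.211% to 38.5%). Such a share of 10% or less was found in 0.673% of the 1040 genes with at least 10 MEF intervals, and Slit3 was the 1 member of 14 there. The 10% bound was not set in advance and lies just above the Slit3 share, so this background is only a description. Slit2, in contrast, shared 8 of its 15 MEF intervals. By density Slit2 stood at 43.5 per Mb in MEFs and 52.2 in mESCs, above the Robo genes together. Slit3 stood at 19.8 and Slit1 at 18.4 in each list, and Robo2 at 38.9 in each. Without Robo1 the other Robo genes held 35.5 and 40.6 per Mb. The difference between Slit and Robo genes was not tested.

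The netrin system held 90 MEF and 109 mESC intervals in 9 genes, or 33.8 and 41.0 per Mb. Netrins are secreted laminin-related cues, Dcc mediates attraction to netrin-1, and Unc5 receptors mediate repulsion. Dcc, the longest member at 1097 kb, held 34 in MEFs and 46 in mESCs where 40.7 and 50.5 were expected. Unc5d held 29 and 33, and Unc5c 13 and 16. Unc5a held 1 in MEFs and 0 in mESCs where 3.40 and 4.60 were expected by length. The expected count lay inside the 95% Poisson interval in MEFs (0.025 to 5.57) and above it in mESCs (0 to 3.69). The 4 netrin genes held 10 and 11 intervals, with 1 of the 10 MEF intervals shared, or 10% (95% exact binomial interval 0.253% to 44.5%). Of the 46 MEF intervals of the Unc5 genes, 26 were shared, or 56.5% (41.1% to 71.1%), near the 47.3% of MEF intervals over all autosomal territories.

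**Figure D2:**
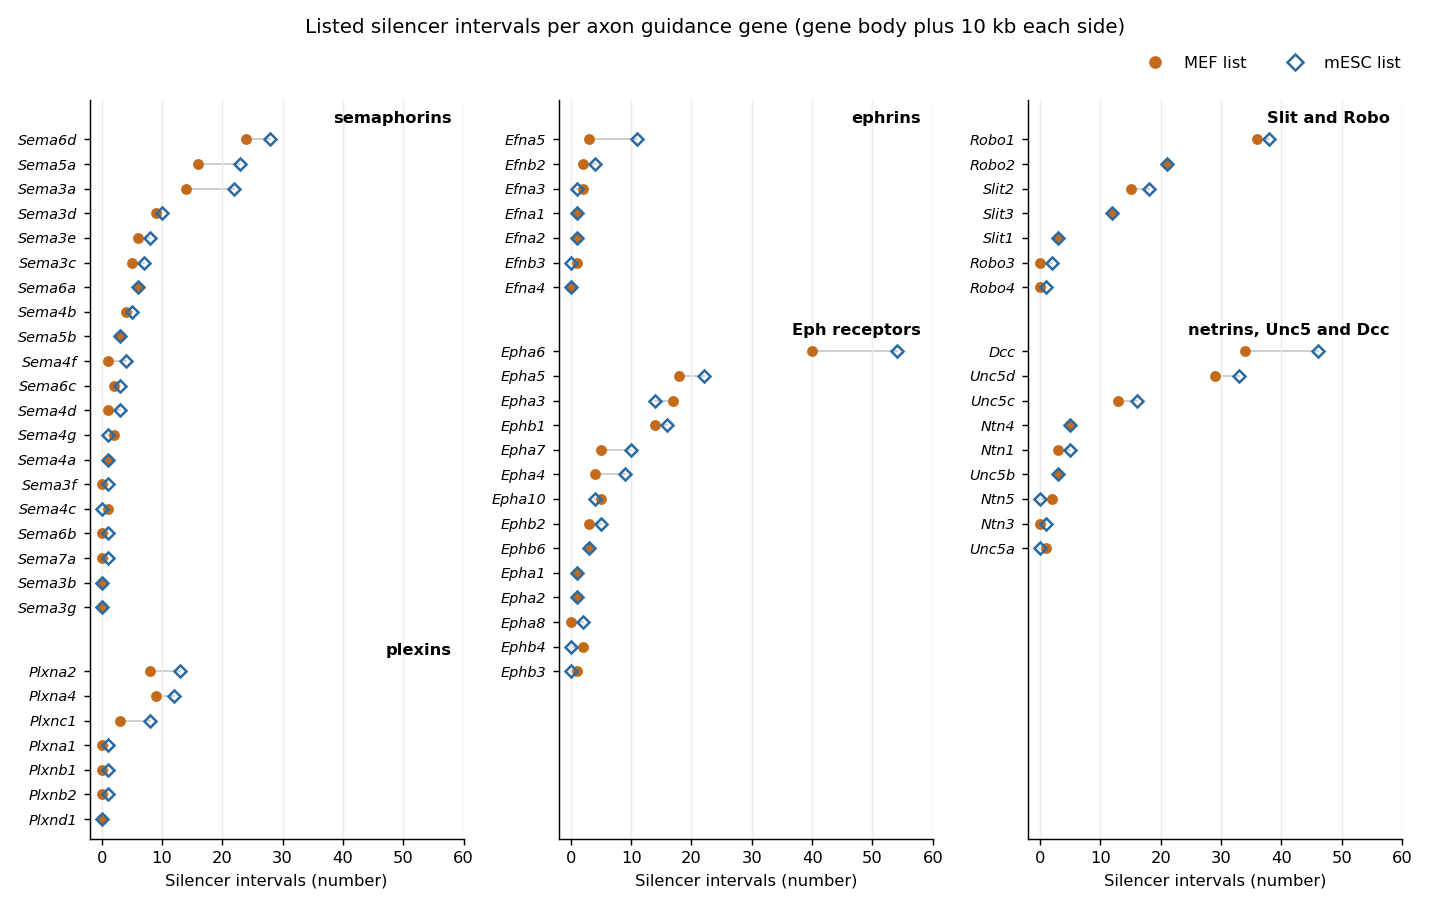
Number of listed silencer intervals (horizontal) in the territory of each of the 64 members (vertical, grouped by family) for the MEF list (filled circles) and the mESC list (open diamonds). Epha6 has the highest counts in both lists, 40 and 54, and most short members hold between 0 and 5 intervals in each list.

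The mESC share of member intervals stood near that of the whole lists. It was 55.8% (95% exact binomial interval 52.6% to 59.0%), against 56.5% over all autosomal protein-coding territories and 56.2% over both lists whole. More mESC than MEF intervals were counted in 37 members (57.8%, against 46.8% of all genes), fewer in 10 (15.6%, against 20.4%) and equal numbers in 13. The other 4 members (6.25%) held none in either list, against 16.2% of all genes. These shares were not matched on length, and the median territory was 71.5 kb for members and 37.6 kb for all genes. Among territories under 50 kb, 11.1% of members and 23.4% of all genes held none. Between 50 and 100 kb the order was the other way, with 1 of 7 members (14.3%) against 4.45%.

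No member was called in a per-gene test of the mESC share. The two-sided exact binomial test against the 56.2% share, with Benjamini-Hochberg adjustment over all 3549 genes with at least 10 intervals, called 0% of genes toward mESC and 0% toward MEF. It was run on 25 members. At an unadjusted p under 0.05 stood 30 genes (0.845%), and 0 of the 25 members. The smallest member p was 0.110, for Efna5, at a share of 78.6% (95% exact binomial interval 49.2% to 95.3%), and its exact binomial adjusted p was 1. Epha3 stood at the other end with 45.2% (27.3% to 63.97%). The interval of each of the 25 members included the share of the lists as a whole. Even for Epha6, with 94 intervals, it ran from 46.8% to 67.6%, so differences inside that range were not detectable by this test. A locus listed in both cell types counts once for each list, so the intervals of a gene are not independent trials. The binomial intervals can therefore be too wide and the p-values too large, and a lack of calls does not show equal shares. When only intervals without an overlap in the other list were used, the same exact binomial test called 0 of 1665 genes, with 68 genes and 0 of 18 members at an unadjusted p under 0.05.

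**Figure D3:**
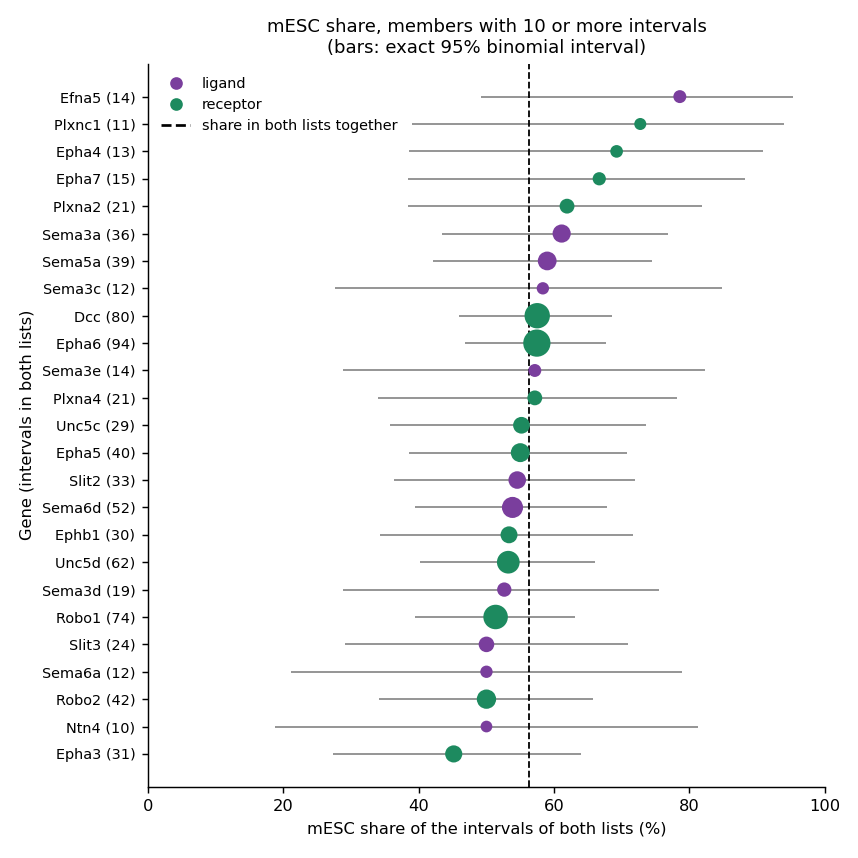
Share of the intervals of both lists that came from the mESC list (horizontal, %) for the 25 members with 10 or more intervals (vertical, total in brackets). Points are coloured by role and sized by total, bars are exact 95% binomial intervals, and the dashed line is the 56.2% share of both lists together, which every bar crosses.

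The part of member intervals shared between the cell types stood near that of other genes. An mESC interval overlapped 204 of the 416 MEF intervals by at least 1 bp (49.0%, 95% exact binomial interval 44.1% to 53.95%), against 47.3% over all autosomal territories. A MEF interval overlapped 202 of the 526 mESC intervals (38.4%, 34.2% to 42.7%), against 36.3%. Across the 204 shared MEF intervals Spearman's rho between the authors' folds in the 2 lists was 0.44, a description over intervals, which are not replicates. The mESC fold was the higher in 115 of them. The median fold of member intervals was 2.35 in MEFs and 2.45 in mESCs, against 2.35 and 2.39 over all territories. A fold above 4 was listed for 20 member intervals in MEFs (4.81%, against 5.22%) and 45 in mESCs (8.56%, against 7.16%).

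Member intervals were mostly intronic. By midpoint, 367 MEF (88.2%) and 453 mESC intervals (86.1%) lay in introns, which made up 86.8% of the member territories. In introns the density was 33.0 per Mb in MEFs (95% Poisson interval 29.8 to 36.6) and 40.7 in mESCs (37.1 to 44.7), against 39.6 and 51.3 in the introns of all genes. In Sema3a, 9 of the MEF and 11 of the mESC intervals counted as intronic lay outside all protein-coding transcripts of the gene, in the part spanned by noncoding ones. Along the bodies of the 30 members of 100 kb or more, 4 equal parts from start to end held 27.2%, 24.1%, 26.1% and 22.7% of the MEF intervals. The mESC intervals were spread as evenly, from 22.2% to 26.8% per part.

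The flank upstream of member genes was the one place where the mESC density stood above that of other genes. It held 38 mESC intervals from 28 members, or 66.0 per Mb (95% Poisson interval 46.7 to 90.6), against 56.04 for all genes, which lies inside that interval. In MEFs the same flank held 21 intervals, or 36.5 per Mb (22.6 to 55.7), against 42.2. Of these, 14 in each list overlapped the other. No member had more than 3 mESC intervals there.

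Exons and gene starts of members held few intervals. Coding exons held 1 in MEFs, in Epha5, and 2 in mESCs, in Epha6 and Dcc, or 5.35 and 10.7 per Mb against 16.3 and 21.0 for all genes. Untranslated exons held 1 in MEFs, in Sema6a, or 6.04 per Mb (95% Poisson interval 0.153 to 33.6), against 35.02 for all genes, just outside that interval. In mESCs they held 3, in Epha7, Slit2 and Unc5c, or 18.1 per Mb (3.74 to 52.9), against 44.5. By midpoint, 1 interval in each list lay within 1 kb of a member's annotated start, or 7.81 per Mb (95% Poisson interval 0.198 to 43.5), against 20.9 in MEFs and 28.3 in mESCs for all genes. By any overlap with that window, 2 members had a MEF interval at the gene start, Epha7 and Sema3d, where 4.63% of all genes had one. In mESCs 2 members had one, Plxna2 and Sema3d, against 6.1% of all genes. The folds were 2.03 for Epha7, 6.58 for Plxna2, and 2.29 in MEFs and 2.31 in mESCs for Sema3d, which was the member with a listed interval there in both cell types. For coding exons and gene starts, the density of all genes lay inside the members' 95% Poisson interval in both lists, so no difference was detectable there at these counts. None of these differences in place was tested.

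**Figure D4:**
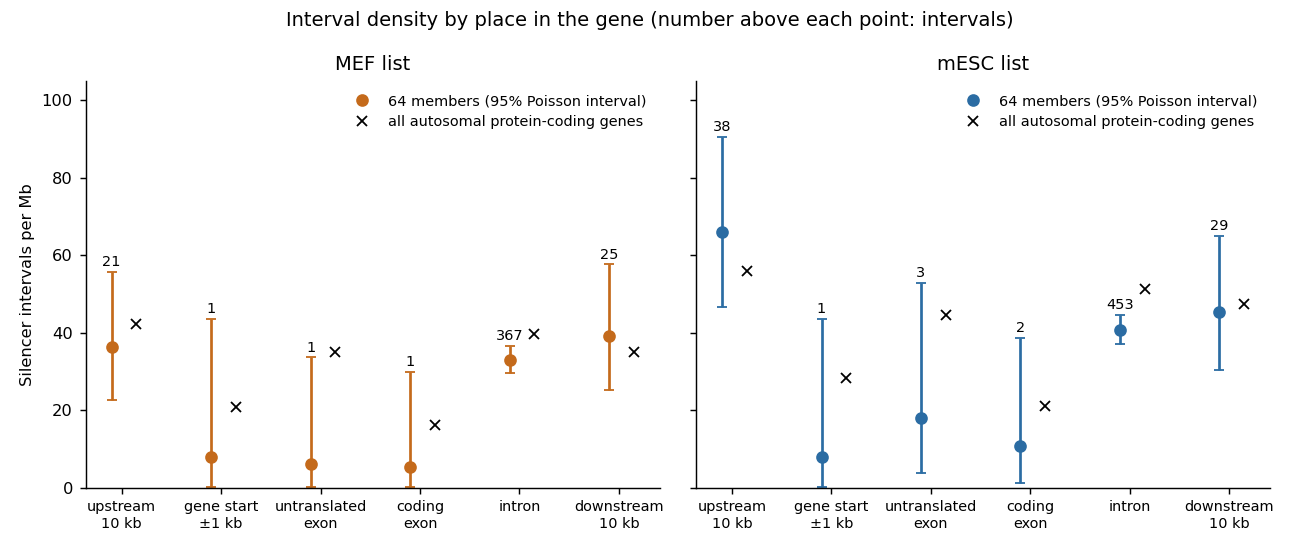
Silencer intervals per Mb (vertical) by place in the gene, assigned at the interval midpoint, for the MEF list (left) and the mESC list (right). Filled points are the 64 members with 95% Poisson intervals and the number of intervals above, and crosses are all autosomal protein-coding genes. Introns of members lie below the crosses in both lists, at 33.0 and 40.7 per Mb, while the other places have wide intervals.

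The fullest 20 kb of a gene was picked for each member, so a gene with many intervals shows a group by this choice. In Epha6, 9 intervals (4 from MEFs and 5 from mESCs) lay within 18.8 kb, at chr16:59708945-59727724, from 878 to 896 kb after the gene start. Robo1 had 8 within 16.0 kb, from 118 to 134 kb after its start, and Sema3a 8 within 15.6 kb, from 121 to 137 kb. Unc5d had 8 within 20.1 kb, from 181 to 201 kb. The counts sum both lists, and a locus listed in both counts for each. In these windows 2 MEF intervals in Epha6, and 3 each in Robo1, Sema3a and Unc5d, overlapped an mESC interval. No such windows of other genes were counted, so the windows only give positions. Within 5 kb, another interval of the same list was found for 34.9% of member intervals in MEFs and 33.7% in mESCs, against 40.3% and 47.6% of intervals in all territories. These shares were not matched on density or territory length, and the difference was not tested.

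**Figure D5:**
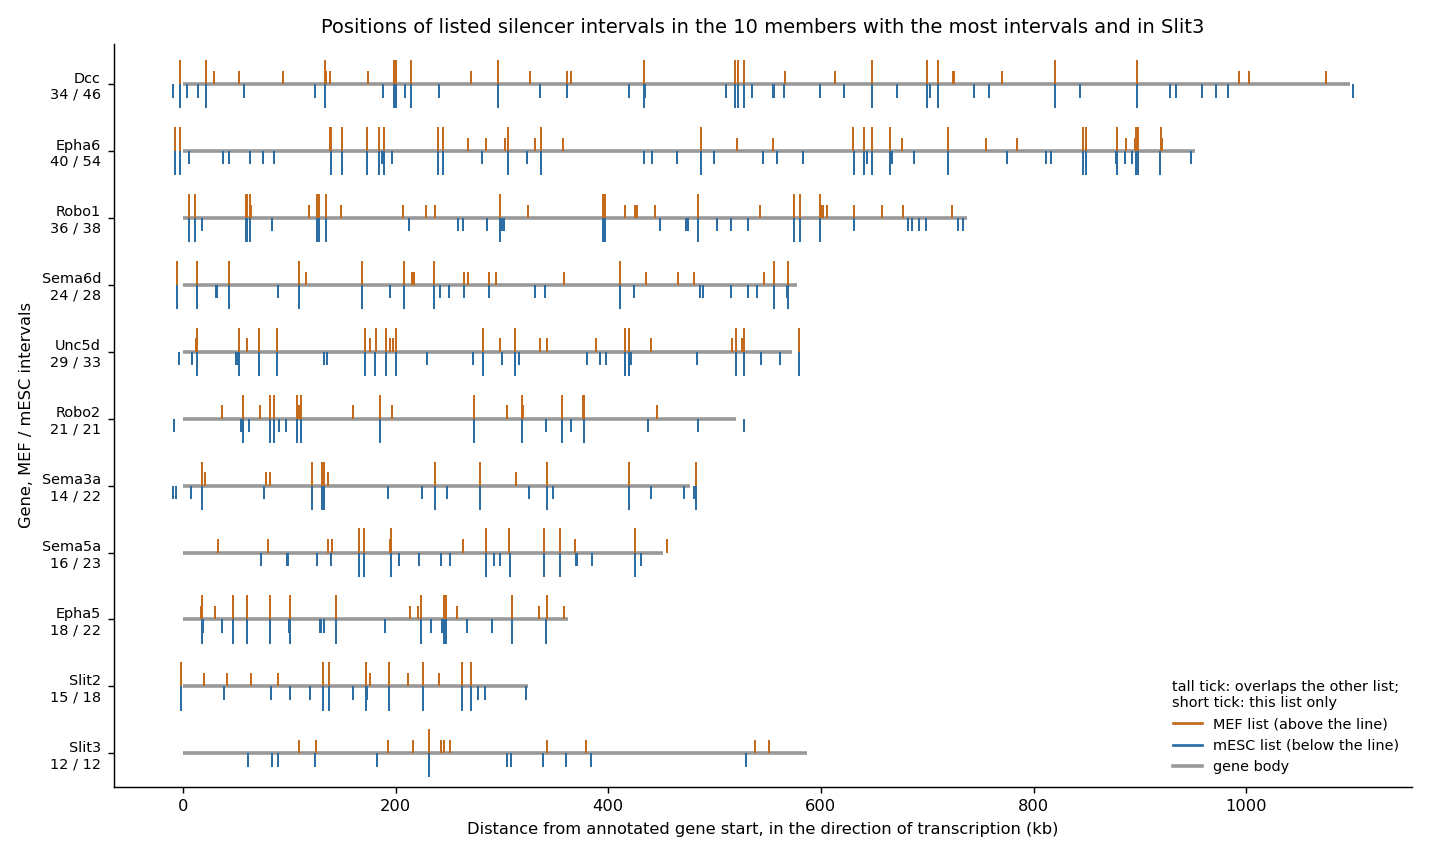
Positions of listed intervals along the 10 members with the most intervals and Slit3, as distance in kb from the annotated gene start in the direction of transcription. Orange ticks above each grey gene body are MEF intervals and blue ticks below are mESC intervals, tall where an interval overlaps the other list. Slit3 has 1 tall tick in each list, while Epha6, Robo1 and Epha5 have many along the body.

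Member intervals contained less repeat sequence than other intervals near genes. Soft-masked bases made up 27.3% of MEF and 28.6% of mESC member intervals, against 38.1% and 40.2% of the intervals in all autosomal territories. In territories of 250 kb or more the gap was smaller, at 25.4% against 30.5% in MEFs and 26.7% against 33.2% in mESCs. The bases of those territories were 24.3% soft-masked for members and 27.6% for all genes. Only 5 MEF member intervals (1.20%, 95% exact binomial interval 0.391% to 2.78%) and 21 mESC ones (3.99%, 2.49% to 6.04%) were masked over their whole length, against 7.86% and 8.48%. In those long territories, 1.56% of MEF member intervals (0.508% to 3.60%) were fully masked against 6.16%, and 4.31% of mESC ones (2.53% to 6.82%) against 6.88%. Of the 21 fully masked mESC intervals, 7 lay in Epha6 and 4 in Dcc, and without Epha6 the mESC share was 2.97%. The GC content of member intervals was 39.8% in both lists, against 40.5% and 40.7%. These confidence intervals cover counting error only.

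Density varied among long members with the composition of their territory. Across the 30 members with territories of 100 kb or more, Spearman's rho of density with GC content was -0.62 in MEFs and -0.61 in mESCs, and with the soft-masked share 0.53 and 0.39. Over all 3043 genes of that length rho with GC content was -0.44 and -0.45. All these genes share the same 2 lists, so these are descriptions. Slit3 (GC 46.5%, soft-masked 16.9%), Plxna4 (45.6%, 15.5%) and the short Unc5a (54.1%, 12.3%) had fewer intervals than their length gave. The expected counts lay outside the Poisson intervals in both lists for Slit3, but in mESCs alone for Plxna4 and Unc5a. Epha6 (37.3%, 36.7%) and Robo1 (38.8%, 25.2%) had more than their length gave in both lists. All expected counts of Epha6 and Robo1 lay inside the Poisson intervals. Other members of low GC content went the other way, with Dcc (37.1%) at 34 in MEFs and 46 in mESCs where 40.7 and 50.5 were expected. Sema3e (37.4%) held 6 and 8 where 9.63 and 12.2 were expected. In MEFs Sema3a (35.9%) held 14 where 18.1 were expected, but in mESCs it held 22, near the 22.5 expected. For Dcc, Sema3e and Sema3a too, the expected counts lay inside the Poisson intervals. The part of composition, and of how well reads map to such sequence, was not tested.

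Short motifs were searched on both strands of each interval. AP-1 (TGANTCA) was found in 36 of 416 MEF member intervals (8.65%, 95% exact binomial interval 6.13% to 11.8%), against 6.62% of the 47035 MEF intervals in all autosomal territories. In mESCs it was found in 43 of 526 (8.17%, 5.98% to 10.9%), against 6.07%. The MYC-type E-box (CACGTG) was found in 3.85% (2.21% to 6.17%) in MEFs against 2.35%, and in 2.66% (1.46% to 4.43%) in mESCs against 2.01%. The ZEB/SNAI-type E-box (CAGGTG) was found in 9.13% and 10.1%, against 12.1% and 12.5%. The TEAD motif (GGAATG) was found in 11.8% and 10.8%, against 10.9% and 11.0%. The SOX motif (AACAAT) was found in 15.9% and 15.0%, against 15.3% and 16.0%. The homeodomain motif (TAATTA) stood at 8.17% and 9.32% against 8.89% and 9.79%, the octamer motif at 1.68% and 1.90% against 1.55% and 1.67%, and KLF/SP (GGGCGG) at 1.68% and 1.33% against 2.11% and 2.52%. The REST consensus was found in 0 member intervals of either list, which allows a share of up to 0.721% in MEFs and 0.570% in mESCs by the limit of 3 counts, or 0.883% and 0.699% by the exact binomial limit. Across all autosomal territories 1 MEF and 7 mESC intervals held it. No searched word contains another, and a match is only a match of letters. None of these differences was tested.

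In the sequences printed above, the capitals mark SOX in the Robo1 interval, TEAD and homeodomain in the downstream Sema3a interval, and the ZEB/SNAI-type E-box in the repeat-derived Epha5 interval. They mark TEAD and SOX before Epha7, and KLF/SP after the start of Sema3d. The other 7 held none of the searched motifs.

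Of 54 further genes of the pathway (co-receptors, adaptors and cytoskeletal effectors), all were found, with 298 MEF and 351 mESC intervals in 8.46 Mb. Their densities were 35.2 and 41.5 per Mb, against 38.5 and 49.97 over all autosomal protein-coding territories, and 3 of them held no interval. Observed over expected by length was 0.91 in MEFs and 0.84 in mESCs, where the members stood at 0.87 in both, so lower density was not particular to the members. The exact binomial test was run on 21 of them and called 0, with 0 at an unadjusted p under 0.05. Dscam, a netrin-binding adhesion molecule, held 25 in MEFs and 24 in mESCs. Ptk2, which encodes focal adhesion kinase, held 21 and 24 in a territory of 238 kb. Dock1, an activator of Rac, held 19 and 22.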

How the data were processed

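Input plasmid DNA and reporter RNA were sequenced from MEFs and mESCs, and 2 interval lists, 1 per cell type, were analysed. Each interval carries a linear fold, a ratio deposited by the authors under that name in the file headers. The sources used here do not state the fold's numerator and denominator, how depth was scaled, how intervals were called or how libraries were pooled. The lists hold no counts, so depth is unknown. Bowtie2 and SAMtools are named without versions, and hg38 as build, per the submitters' processing notes, while the design text names mm10. No interval ended past an mm10 chromosome (0 of either list), and mm10 was used. Starts were read as zero-based, but 40.7% of MEF and 40.8% of mESC starts lie 1 base past a multiple of 50, which leaves an uncertainty of 1 bp.

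Genes came from GENCODE M21 and sequence from GRCm38.p6 (RefSeq). Counting, the exact binomial tests, and exact binomial and Poisson intervals used Python 3.11.15, pandas 2.3.3, SciPy 1.17.1 and statsmodels 0.14.6. Members, partner genes and tests were chosen with earlier results of these data known. Named genes were the 3 members of each family with the most intervals, those past a density percentile bound (95 or 5), with an interval within 1 kb of the gene start, with no interval, or with 1 of the 5 highest folds of a list. Ephb1, Plxna1, Plxnb1, Plxnb2, Sema3e and Sema6a fall outside this rule and were chosen after their values were seen. Intervals are not replicates.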

Additional observations from a re-analysis of the deposited data

How the results depend on the processing

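With no flank, 50 kb flanks, midpoints in place of overlap, and without Epha6, member density stayed below that of all genes in both lists. With a fold of 3 or more, or at or above the list median, it was also lower, but in mESCs the ratio moved toward 1. No counting interval was computed for any of these alternatives. The count of members called in the per-gene test was 0 under each of these and with list-only intervals or a minimum of 5 or 20 intervals per gene, and the count over all genes was 0 under the same alternatives other than leaving out Epha6, for which it was not run. With a fold of 3 or more (71 MEF and 130 mESC member intervals), the mESC density ratio was 0.976, the mESC share of member intervals 64.7% (61.0% over all autosomal territories at that fold), and the shared part 35.2% of MEF and 19.2% of mESC intervals. With a fold at or above the list median, the mESC density ratio was 0.907 and the shared part 42.2% and 30.2%. Under both, fewer intervals remain to overlap, and the cause of the change in the density ratio and mESC share was not tested. Counting an interval as shared only when at least 50% of both overlapped gave 38.7% and 30.6%, and midpoints within 1 kb gave 54.3% and 43.5%. With list-only intervals the mESC share was 60.4%, against 60.7% over both whole lists. Of the alternative values, 12 lay outside the counting interval of the main value and 40 inside it or, for call counts, at 0 as before. No paired analysis was possible because each cell type has 1 pooled list, in which no library or replicate number can be told apart. Depth is unknown. Small gene totals, and loci that count once for each list, limit the per-gene test.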
